A study of Mus musculus with 4 samples.

Results

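Ependymal cells form the lining of the brain's ventricles. The cells described here are those that carry the deposited label EPC in the cell tables of both brain regions, which were 189 of 21644 cells. They came from 4 single-cell RNA libraries made with droplet 3′ chemistry, 1 library each for transgenic midbrain, wildtype midbrain, transgenic frontal cortex and wildtype frontal cortex. The transgenic mice serve as a model of synucleinopathy, the wildtype mice were their littermates on a C57BL/6 background, and all were 6 to 9 months old. The design text gives 3 mice per group, but the label for the number of mice reads 3 for frontal cortex and 0 for midbrain, and no cell is tied to a mouse, so each group is 1 sample. The promoter that drives the transgene is not given in the sources used here. With 1 library per group no test between groups was possible, no p-value is given, and every interval covers counting error only.

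A multiciliated ependymal cell carries a tuft of motile cilia that move cerebrospinal fluid along the ventricle wall. The core of each motile cilium, the axoneme, is a ring of doublet microtubules around a central pair, bent by outer and inner dynein arms and held in register by radial spokes and the nexin-dynein regulatory complex. The transcription factor FOXJ1, with factors of the RFX family, switches on the genes of this machine, while specialised cells of the ventricular lining also secrete proteins into the fluid.

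The midbrain held 45 transgenic and 114 wildtype EPC cells, which were 1.13% (exact binomial 95% interval 0.823 to 1.5) and 1.49% (1.23 to 1.79) of the cells of their libraries. The frontal cortex held 16 transgenic and 14 wildtype EPC cells, or 0.424% (0.242 to 0.687) and 0.224% (0.123 to 0.376). How much ventricle wall each dissection held cannot be told apart from the number of such cells in the tissue. They gave 594504 and 1279812 UMIs (counted RNA molecules) in midbrain and 165491 and 134218 UMIs in frontal cortex, so single genes are measured much less precisely in frontal cortex. The median was 14029 and 11678.5 UMIs per EPC cell in transgenic and wildtype midbrain, and 9744.5 and 8377 in transgenic and wildtype frontal cortex. Of 21598 distinct barcodes, 46 occurred in more than 1 library, and 2 EPC cells carried one of these, with no barcode shared between EPC cells. One EPC cell of transgenic midbrain held 138 UMIs of 8 microglial markers and one of wildtype frontal cortex held 249, so several results are given with and without them. Single genes compared between regions are given only with them.

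The label was checked first against its defining markers and those of other cell types. All 10 ependymal markers examined were highest in EPC cells in both libraries of each region. In midbrain 0 of 8 choroid plexus markers were highest in EPC cells, and of the remaining lists 1 of 5 neuroblast markers (Cd24a) and 1 of 4 olfactory ensheathing markers were. In frontal cortex 7 of 8 choroid plexus markers and 1 of 4 tanycyte markers were also highest in EPC cells, and the cells fell into separate sets. No marker of astrocytes, microglia, endothelial or mural cells, oligodendrocytes or neurons was highest in EPC cells of either region. In 12 of the 30 frontal cortex cells, 4 transgenic and 8 wildtype, Ttr made up 1.81% to 24.6% of all UMIs. Ttr encodes transthyretin, the thyroid hormone carrier that choroid plexus epithelium secretes in bulk. These 12 cells had 0 UMIs of Ccdc153 and of Tmem212, and the axonemal genes made up 0.17% to 0.665% of their UMIs. In the other 18 cells, 12 transgenic and 6 wildtype, Ttr was at most 0.0177% and axonemal genes made up 1.4% to 2.67%. No cell lay between. Summed over all EPC cells Ttr stood at 28700 and 52560 CPM (UMIs per 1000000 UMIs) in transgenic and wildtype frontal cortex, against 49.4 and 64 CPM in the cells labelled CPC of the transgenic and wildtype libraries. The Ttr-rich cells also held 347 UMIs of Enpp2, the secreted lysophospholipase D autotaxin, against 4 in the Ttr-poor cells. They were not free of cilia genes: together they held 38 UMIs of Rsph1, 29 of Dynlrb2 and 6 of Foxj1, against 172, 147 and 115 in the Ttr-poor cells. The label in frontal cortex thus covered 18 cells that carry its defining markers and 12 cells rich in choroid plexus genes in which Ccdc153 and Tmem212 were not found. Ttr-rich cells were 4 of 16 in the transgenic library and 8 of 14 in the wildtype library, so frontal cortex values below are those of all labelled cells unless the Ttr-poor cells are named, and the main comparisons are given for both. The boundary of 1% Ttr was set after these values were seen.

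**Figure D1:**
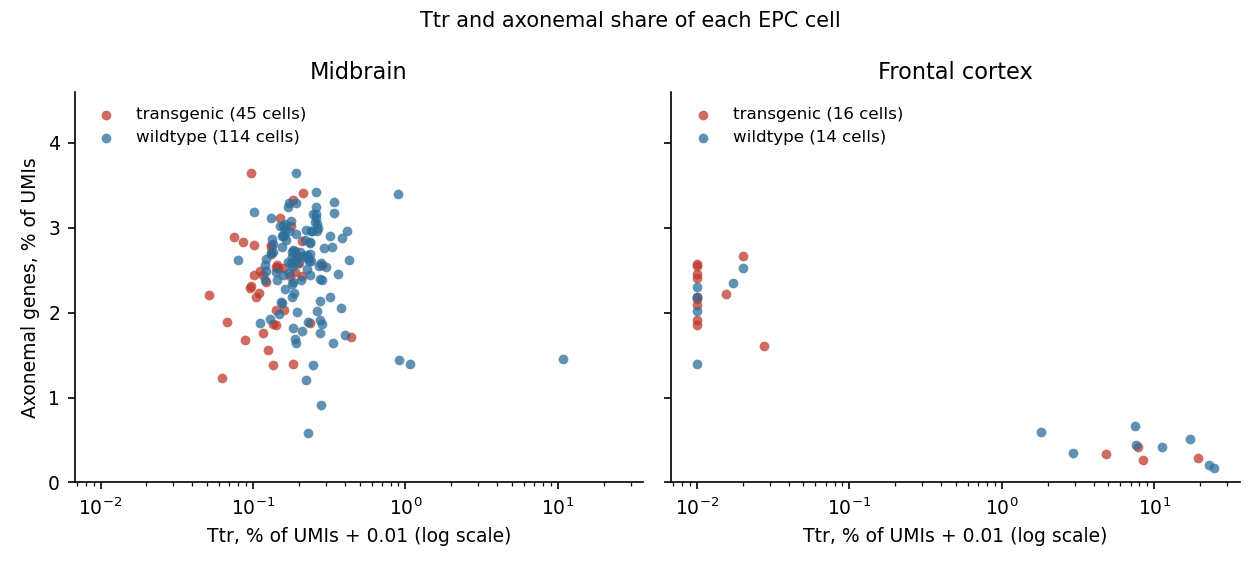
Each point is 1 EPC cell, with its Ttr share of UMIs plus 0.01 on a log axis and its share of UMIs from axonemal genes, in percent, for transgenic (red) and wildtype (blue) libraries of midbrain and frontal cortex. The 30 frontal cortex cells form a Ttr-poor set of 18 and a Ttr-rich set of 12 that has little axonemal RNA. Midbrain cells form 1 cloud, with axonemal shares down to 0.577% and 1 wildtype cell at 10.8% Ttr.

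In midbrain every EPC cell had at least 1 Ttr UMI, at a summed level of 1236 CPM in transgenic and 3762 CPM in wildtype EPC cells. Every other deposited type had Ttr too, from 1022 CPM upward in the transgenic and from 1575 CPM upward in the wildtype library, and cells labelled MG stood at 2528 and 4646 CPM. One wildtype cell held 2316 of the 4815 wildtype EPC UMIs of Ttr. Midbrain Ttr was therefore not read as expression by EPC cells. Wildtype midbrain EPC cells of 10079 and 15604 UMIs also had 0 UMIs of Ccdc153 and of Tmem212, with axonemal shares of 0.913% and 0.577%.

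The 4 leading markers were higher in EPC cells than in any other type compared. Ccdc153 (ENSMUSG00000070306, chr9:44240676-44247306, plus strand), a subunit of the nexin-dynein regulatory complex, stood at 2182 CPM in transgenic and 2305 CPM in wildtype midbrain, and at 1656 and 819.6 CPM in transgenic and wildtype frontal cortex. The next type was at 5.77 and 15.3 CPM in the transgenic and wildtype midbrain libraries. Tmem212 (ENSMUSG00000043164, chr3:27866066-27896368, minus strand), a membrane protein gene, stood at 3208 and 2937 CPM in transgenic and wildtype midbrain, and at 1595 and 879 CPM in transgenic and wildtype frontal cortex. Rsph1 (ENSMUSG00000024033, chr17:31255019-31277383, minus strand), a radial spoke head protein, stood at 1115 and 1080.0 CPM in transgenic and wildtype midbrain, and at 779.5 and 604 CPM in transgenic and wildtype frontal cortex. Dynlrb2 (ENSMUSG00000034467, chr8:116504974-116515915, plus strand), a light chain of dynein motors including the intraflagellar transport motor, stood at 1114 and 1088 CPM in transgenic and wildtype midbrain, and at 653 and 507 CPM in transgenic and wildtype frontal cortex. In the Ttr-poor frontal cortex cells alone, Ccdc153 stood at 2394 and 1837 CPM, Tmem212 at 2306 and 1970 CPM, Rsph1 at 1057 and 851.6 CPM and Dynlrb2 at 829.9 and 868 CPM in transgenic and wildtype cells. All 4 markers were highest in EPC cells in each of the 4 libraries. UMI counts of 3′ ends are not scaled to gene length, and levels are not compared between genes.

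After each cell was thinned to 3000 UMIs, Ccdc153 had a UMI in 90.9% of 44 transgenic and 95.4% of 109 wildtype midbrain EPC cells, against 0.297% of MG cells in the transgenic and 0.62% in the wildtype library. Without thinning the shares were 95.6% and 97.4% of EPC cells against 0.744% and 1.47% of MG cells, whose median depths were 8317.5 and 6749 UMIs. In frontal cortex the thinned share was 73.3% of transgenic and 46.2% of wildtype EPC cells, against 0 and 0.0554% of MG cells, and unthinned it was 75% and 42.9%, equal to the 12 of 16 and 6 of 14 cells that were Ttr-poor. Thinning left out 1 EPC cell in each library other than wildtype midbrain, where it left out 5, and it left out 132 and 190 MG cells in transgenic and wildtype midbrain and 193 and 107 in transgenic and wildtype frontal cortex.

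The markers differed in how far they reached into neighbouring types of midbrain. Rsph1 was at 158 CPM in transgenic and 191 CPM in wildtype cells labelled CPC, the next type after EPC in both libraries. Dynlrb2 was at 284 CPM in transgenic and 207 CPM in wildtype cells labelled TNC. Foxj1 (ENSMUSG00000034227, chr11:116330704-116335399, minus strand) was at 538 and 686 CPM in transgenic and wildtype midbrain EPC cells, against 74.8 and 86.8 CPM in transgenic and wildtype TNC cells. In frontal cortex, where the next type was AC in both libraries, Foxj1 was at 423 and 380.0 CPM in transgenic and wildtype EPC cells, against 2.29 and 2.0 CPM in transgenic and wildtype AC cells. The Ttr-poor EPC cells alone had 585 CPM of Foxj1 in the transgenic and 801.5 CPM in the wildtype library.

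**Figure D2:**
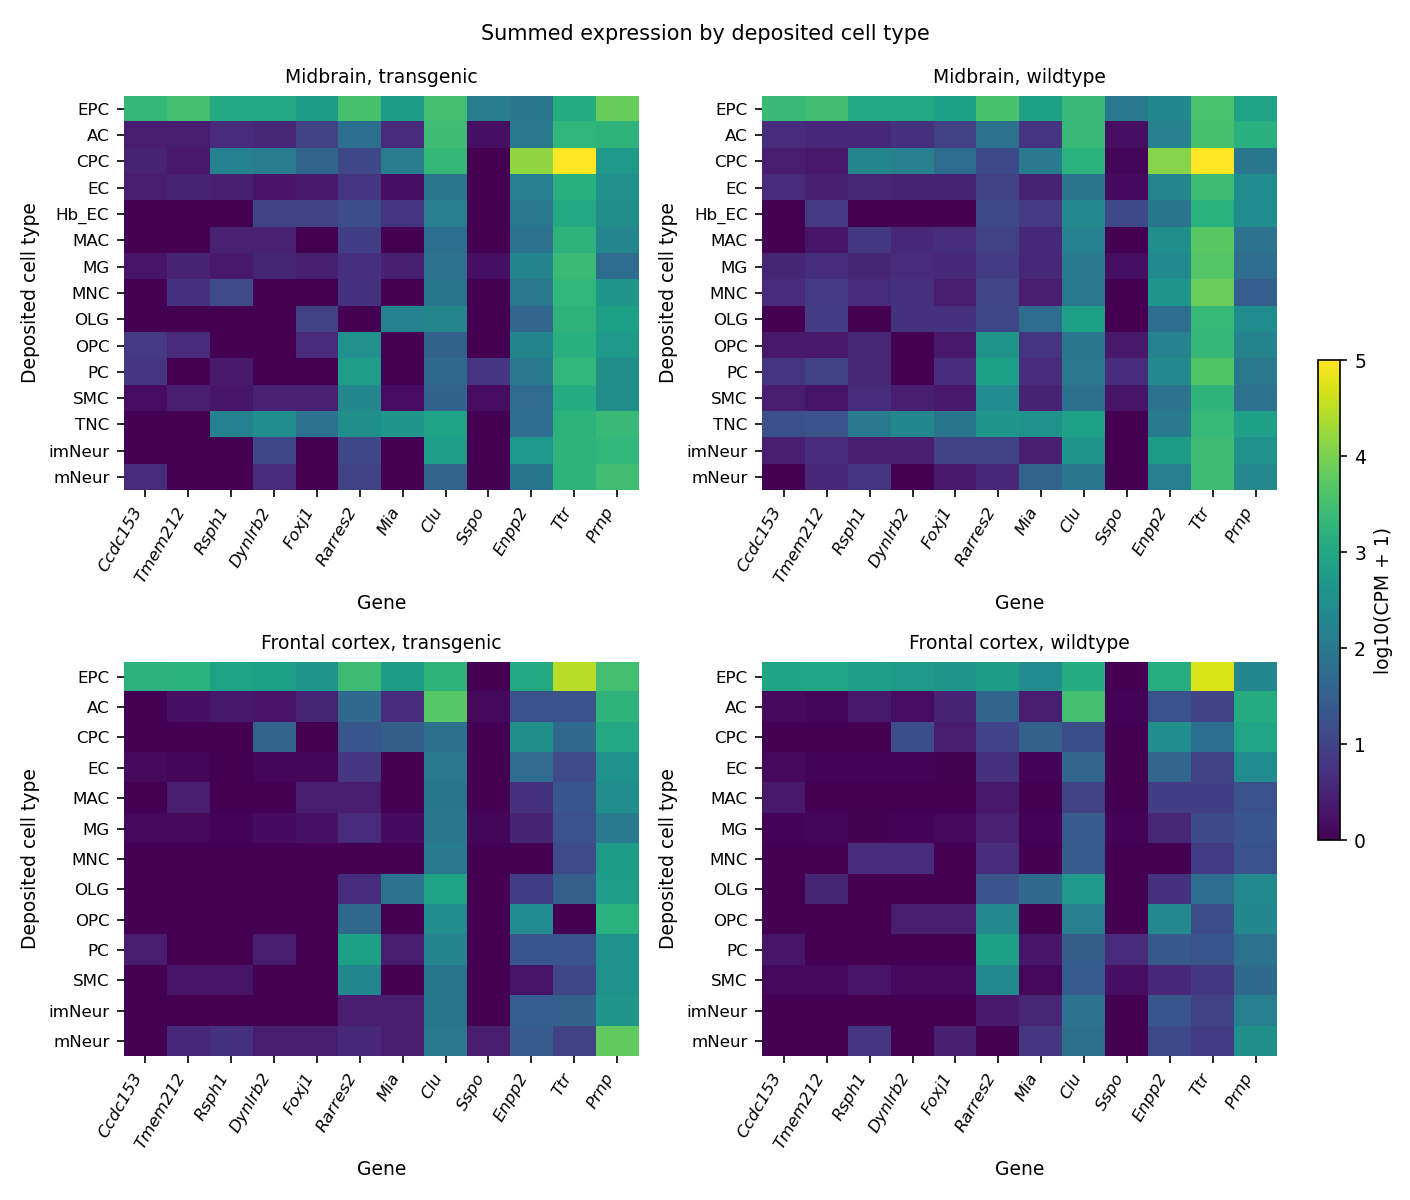
Each square is the summed expression of 1 gene in 1 deposited cell type of 1 library, as log10 of CPM plus 1, with types of at least 10 cells down the page and EPC on top. Ccdc153 and Tmem212 are bright in EPC cells of all 4 libraries and at most 17.9 CPM elsewhere, Rsph1 and Dynlrb2 also appear in midbrain CPC and TNC cells, and Ttr and Enpp2 are high in frontal cortex EPC cells and in midbrain CPC cells.

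Across the ciliary machine, a gene was called highest in EPC when its EPC level was at least 2 times that of the next type, in both libraries of a region, with at least 20 EPC UMIs. This describes the label, which the authors made by clustering, and is no test. Of all genes with 20 EPC UMIs, 581 of 9372 (6.20%) were highest in midbrain EPC and 335 of 2802 (12%) in frontal cortex EPC. Of the axonemal genes, 72 of the 104 with 20 UMIs were highest in midbrain and 64 of 71 in frontal cortex, from 116 listed genes. With the Ttr-rich cells left out, 59 of 61 were highest in frontal cortex, against 16.7% of all genes. The counts by structure rest on few genes each, and 12 other types were compared in each frontal cortex library against 14 in each midbrain library. In frontal cortex all 13 measured inner arm genes, all 8 genes of the nexin-dynein regulatory complex and all 16 genes of the central apparatus were highest in EPC cells, with 7 of 9 outer arm genes, 6 of 8 radial spoke genes and 14 of 17 genes of proteins inside the doublet microtubules. Over the Ttr-poor cells these last 3 counts were 6 of 7, 5 of 6 and 13 of 13. In midbrain the counts were 13 of 19 inner arm genes, 9 of 12 genes of the regulatory complex, 15 of 19 central apparatus genes, 6 of 11 outer arm genes, 10 of 18 radial spoke genes and 19 of 25 genes of proteins inside the doublet microtubules. Of 104 midbrain axonemal genes, 100 still ranked first in both libraries once no margin was required.

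Machinery that is not special to motile cilia was read against the same shares of all genes, 6.20% in midbrain, 12% in frontal cortex and 16.7% in Ttr-poor frontal cortex cells. Of the intraflagellar transport genes, which load and carry cargo along every cilium, 11 of 33 in midbrain, 11 of 23 in frontal cortex and 10 of 19 in the Ttr-poor cells were highest. Of the BBSome and transition zone genes, which gate the ciliary base, 6 of 28, 6 of 14 and 6 of 11 were highest in the same order. For basal body and centriole genes the counts were 4 of 20, 2 of 9 and 4 of 7, and for tubulins 0 of 7, 1 of 4 and 1 of 3. Once no margin was required, 27 of 33 intraflagellar transport genes, 18 of 28 BBSome and transition zone genes, 10 of 20 basal body genes and 1 of 7 tubulins ranked first in EPC cells of both midbrain libraries. Tubb4b, a beta tubulin of cilia, stood at 1775 CPM in transgenic and 1459 CPM in wildtype midbrain EPC, with CPC cells at 751 and 779 CPM. Dnal1, an outer arm light chain, was not highest in frontal cortex, where mNeur cells had 72.9 CPM in the transgenic library, against 42.3 CPM in EPC cells.

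The genes with the widest margin over every other type in both regions were Sntn, Tmem212, Ccdc153, Cdhr4, Dnah3, Spag17, Rgs22, Lrrc71, Lrrc74b, Adamts20, Iqca and Hydin. Sntn (ENSMUSG00000044772, chr14:13670876-13683148, plus strand) encodes sentan, a protein of the ciliary tip. It stood at 464 and 442 CPM in transgenic and wildtype midbrain, and at 477 and 149 CPM in transgenic and wildtype frontal cortex (690.2 and 334 CPM in the Ttr-poor cells), against at most 1.66 CPM in any other type of these 4 libraries. Spag17 and Hydin belong to the central apparatus, Dnah3 is an inner arm heavy chain, and Iqca belongs to the nexin-dynein regulatory complex. Adamts20, which encodes a secreted metalloproteinase, stood at 205 and 184 CPM in transgenic and wildtype midbrain EPC. In transgenic and wildtype frontal cortex it stood at 157 and 127 CPM (227 and 283.9 CPM in the Ttr-poor cells).

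Promoter letters were set beside these genes because RFX factors and FOXJ1 are the known drivers of motile cilia genes. RefSeq windows of 300 bases (250 before to 50 after the start, build GRCm38.p6) were found for 87 of 109 axonemal genes. The motifs, searched on both strands, were the full X-box (GTT, any base, CC, any 2 bases, GG, any base, AAC), the short X-box GTTGCCATG and the forkhead core TGTTTAC. The full and short X-box letters can overlap, and a gene with both was counted 1 time. An X-box of either form lay in 5 of the 87 windows (5.75%), against 357 of 27025 genes (1.32%). The forkhead letters lay in 6 of 87 (6.90%), against 4.05% of all genes. A match is a description of letters, not a site. The windows shown are those of 2 genes with widest margin (Sntn and Iqca), of 2 axonemal genes (Kif9, a kinesin of the central apparatus, and Cfap161, a protein inside the doublets), and of Ccdc153, which had no match. Capitals mark matched letters.
Sntn, chr14:13670626-13670925, plus strand: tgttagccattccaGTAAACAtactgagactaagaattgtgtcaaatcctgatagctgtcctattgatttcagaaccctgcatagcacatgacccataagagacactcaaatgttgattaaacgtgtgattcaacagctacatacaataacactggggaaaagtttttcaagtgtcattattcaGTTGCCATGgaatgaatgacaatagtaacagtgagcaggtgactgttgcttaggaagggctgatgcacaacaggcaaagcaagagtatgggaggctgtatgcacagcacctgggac
Iqca, chr1:90153387-90153686, minus strand: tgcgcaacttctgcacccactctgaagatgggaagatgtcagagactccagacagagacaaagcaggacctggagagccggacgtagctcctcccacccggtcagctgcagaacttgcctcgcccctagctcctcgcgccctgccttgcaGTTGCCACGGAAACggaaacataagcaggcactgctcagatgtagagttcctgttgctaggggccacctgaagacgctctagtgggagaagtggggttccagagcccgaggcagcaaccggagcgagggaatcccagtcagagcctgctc
Kif9, chr9:110476744-110477043, plus strand: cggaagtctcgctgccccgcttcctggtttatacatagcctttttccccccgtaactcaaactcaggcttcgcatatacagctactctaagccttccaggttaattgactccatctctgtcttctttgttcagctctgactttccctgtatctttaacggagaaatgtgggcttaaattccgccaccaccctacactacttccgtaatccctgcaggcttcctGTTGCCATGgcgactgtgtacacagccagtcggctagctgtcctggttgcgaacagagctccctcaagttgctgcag
Cfap161, chr7:83794790-83795089, minus strand: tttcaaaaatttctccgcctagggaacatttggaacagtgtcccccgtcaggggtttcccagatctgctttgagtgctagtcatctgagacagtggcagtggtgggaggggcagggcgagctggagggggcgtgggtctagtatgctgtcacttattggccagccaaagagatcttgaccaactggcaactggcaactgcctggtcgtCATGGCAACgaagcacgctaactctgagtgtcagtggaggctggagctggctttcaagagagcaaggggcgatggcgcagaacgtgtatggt
Ccdc153, chr9:44240427-44240726, plus strand: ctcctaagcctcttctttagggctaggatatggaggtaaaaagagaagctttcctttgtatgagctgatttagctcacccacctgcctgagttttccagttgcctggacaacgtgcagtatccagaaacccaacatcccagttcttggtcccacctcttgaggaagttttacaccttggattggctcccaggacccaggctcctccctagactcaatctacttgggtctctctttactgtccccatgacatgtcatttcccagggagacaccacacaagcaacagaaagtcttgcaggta
Sntn had a short X-box starting 66 bases before the start and a forkhead match on the opposite strand 236 bases before it. Iqca had a full X-box 100 bases before the start, Kif9 a short X-box 27 bases before it in the window shown, and Cfap161 a short X-box on the opposite strand 42 bases before it. RefSeq also holds an overlapping Kif9 window with an earlier start, where the same letters lie 9 bases after the start.

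The share of secreted protein genes that were highest in EPC cells was near that of all genes. Of 51 listed genes, 38 had 20 UMIs in midbrain and 2 were highest there, Dbi and Sspo, beside 6.20% of all genes. In frontal cortex 3 of 24 were highest, Dbi, Mia and Enpp2, beside 12%. With the Ttr-rich cells left out the 3 of 21 were Dbi, Mia and Spint2, beside 16.7%, and Enpp2 was no longer among them. Dbi, which encodes the acyl-CoA-binding protein that also gives rise to secreted peptides, stood at 15560 and 15290 CPM in transgenic and wildtype midbrain, with TNC cells next at 3337 and 4642 CPM, and at 10360 and 8464 CPM in transgenic and wildtype frontal cortex, with CPC cells next at 3721 and 4077 CPM. In the Ttr-poor cells Dbi stood at 13040 and 13580 CPM in transgenic and wildtype EPC. Mia, a small secreted matrix-binding protein, stood at 548 and 689.9 CPM in transgenic and wildtype midbrain EPC but also reached 409 and 347 CPM in transgenic and wildtype TNC cells. Clu, the secreted chaperone clusterin, was shared with AC cells, at 3107 and 2493 CPM in transgenic and wildtype midbrain EPC and 2807 and 2308 CPM in transgenic and wildtype AC cells. Apoe, the lipid carrier gene, stood at 6148 and 7532 CPM in transgenic and wildtype midbrain EPC, and MAC cells topped it at 41840 and 46000 CPM in the transgenic and wildtype libraries. Of 38 secretory pathway genes measured in midbrain, 0 were highest in EPC cells.

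Rarres2, which encodes the secreted chemoattractant chemerin, was not in the secreted list and entered through its genotype ratio in frontal cortex. In midbrain it stood at 3571 and 3598 CPM in transgenic and wildtype EPC, with PC cells next at 639 and 687 CPM. All 45 transgenic and 110 of 114 wildtype midbrain EPC cells had a UMI of it. In frontal cortex it was found in every one of the 18 Ttr-poor cells and in 0 of the 12 Ttr-rich cells.

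Sspo (ENSMUSG00000029797, chr6:48448229-48501250, plus strand) encodes SCO-spondin, the giant glycoprotein that the subcommissural organ, a patch of modified ependyma, releases to form Reissner's fibre. Its 79 transgenic and 131 wildtype midbrain UMIs came almost wholly from 5 cells, 2 transgenic with 30 and 48 UMIs and 3 wildtype with 26, 46 and 57 UMIs. Every other midbrain EPC cell had at most 1 Sspo UMI, and the frontal cortex cells had 0. The 5 cells were chosen as those above 20 Sspo UMIs, after the values were seen. They had 2 UMIs of Rarres2 in all, against a median of 41 per other midbrain cell. Their axonemal share was 1.21% to 1.76%, within the 0.577% to 3.65% of the other midbrain cells, whose median was 2.59%. Their 4 leading markers summed to 17 to 27 UMIs per cell, against a median of 91.5 in the rest. The gap was widest for Ccdc153 and Tmem212, with 16 and 7 UMIs of 66910 in the 5 cells. The other 154 cells held 4231 and 5659 of 1807406. Rsph1 and Dynlrb2 had 41 UMIs each in the 5 cells, against 2004 and 2013. Foxj1 was not lower, at 65 UMIs against 1133 on the same totals.

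**Figure D3:**
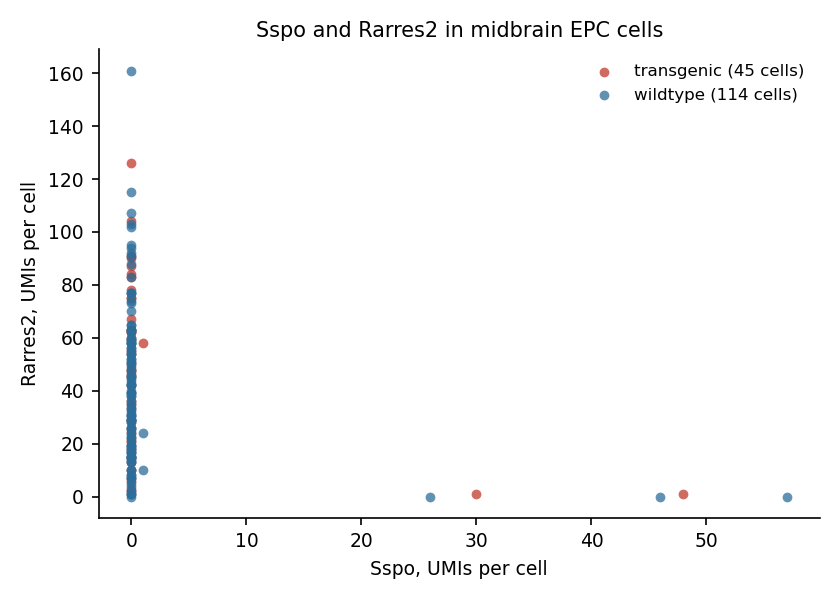
Each point is 1 midbrain EPC cell, with its Sspo UMIs on the horizontal axis and its Rarres2 UMIs on the vertical axis, transgenic in red and wildtype in blue. The 5 cells with 26 to 57 Sspo UMIs have 0 or 1 Rarres2 UMI, and no cell is high for both.

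The genotypes were compared as the ratio of transgenic over wildtype CPM summed over the EPC cells of each library. A gene was counted at 20 CPM in 1 library and 20 UMIs over both, a ratio of at least 1.5 times (0.585 on the log2 scale) and an exact 95% interval that leaves out 0. In midbrain, cilia genes stood at nearly the same level in both genotypes. The 4 leading markers had log2 ratios of -0.08 (95% interval -0.17 to 0.02) for Ccdc153, 0.13 (0.05 to 0.21) for Tmem212, 0.05 (-0.09 to 0.18) for Rsph1 and 0.03 (-0.10 to 0.17) for Dynlrb2. Foxj1 had a log2 ratio of -0.35 (-0.54 to -0.16), short of the size counted. Over 104 axonemal genes the median log2 ratio was -0.10, against -0.06 over all genes. Of the 100 axonemal genes tested, 0 were counted as higher and 4 as lower, against 2.84% higher and 4.21% lower of all 7650 genes tested, so the axonemal share lower was near that of all genes. The 4 were Dnah7c, an inner arm heavy chain, at 21.9 and 48.4 CPM in transgenic and wildtype EPC, Ribc1 at 25.2 and 47.7 CPM, Fbxl13 at 53.8 and 82.8 CPM and 1700007K13Rik, which encodes a protein inside the doublets, at 217 and 329.7 CPM. With the microglia-rich cell left out, 0 were higher and 4 lower of 100, with Iqub in place of Fbxl13, against 2.58% and 4.02% of all 7609 genes. Dnah7c shares close sequence with Dnah7a and Dnah7b, and its reads may be split among them.

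Outside the axoneme, the counts of ciliary genes in midbrain stand beside 2.84% higher and 4.21% lower of all genes. Of 32 intraflagellar transport genes tested, 0 were higher and 2 lower. They were Kif3b, a subunit of the anterograde kinesin motor, with 9 UMIs in transgenic and 46 UMIs in wildtype EPC, and Hspb11, a subunit of the transport complex, at 50.5 and 96.9 CPM in transgenic and wildtype EPC. Of 28 BBSome and transition zone genes, 0 were higher and 2 lower, Bbs5 and Rpgrip1l, and Rpgrip1l stood at 123 and 187.5 CPM in transgenic and wildtype EPC, a log2 ratio of -0.61 (-1.01 to -0.23). Of 15 dynein assembly factors 1, Dnaaf3, was higher, at 113 and 75 CPM in transgenic and wildtype EPC, and of 12 multiciliation regulators none was counted either way.

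**Figure D4:**
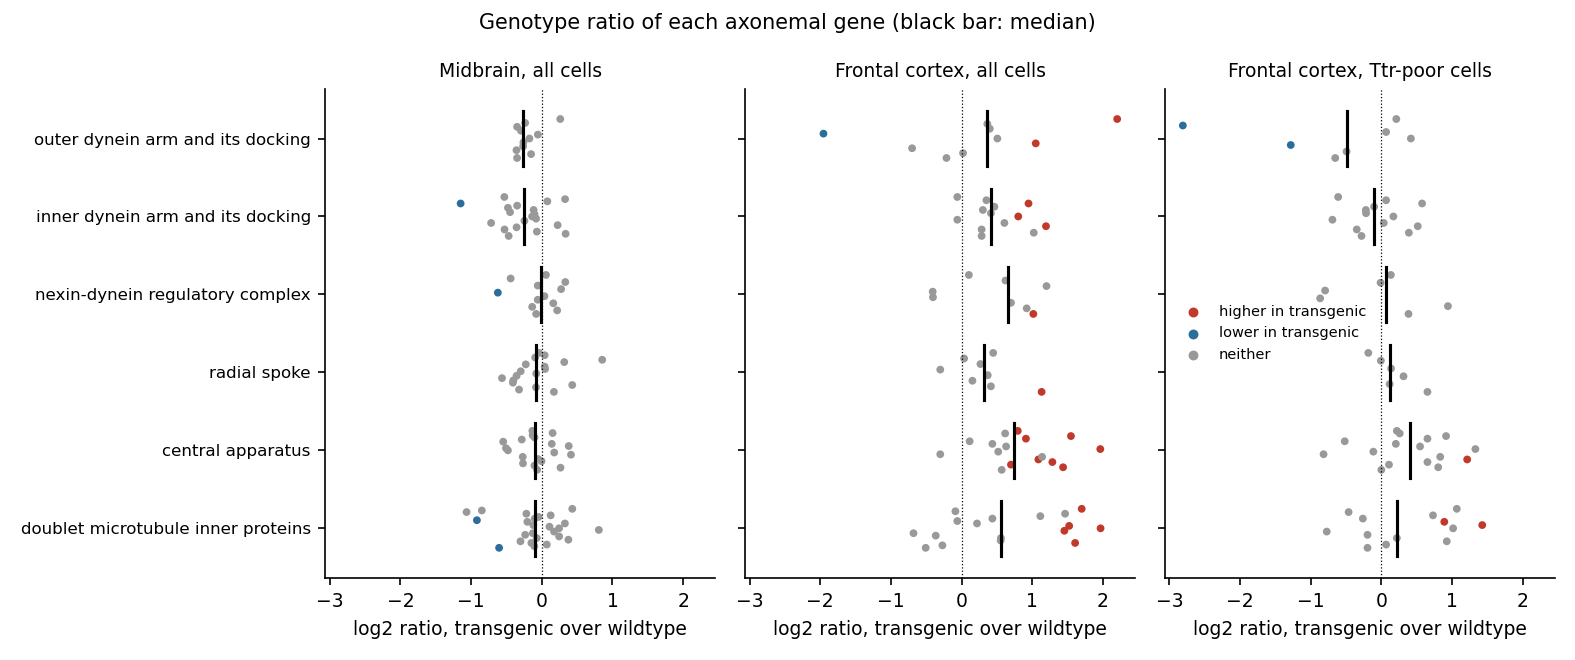
Each point is 1 axonemal gene with at least 20 UMIs, placed by its log2 ratio of transgenic over wildtype EPC and grouped by structure, for midbrain, all frontal cortex EPC cells and Ttr-poor frontal cortex cells, with black bars at the medians and colours for genes counted as higher or lower. The points centre near 0 in midbrain and in Ttr-poor frontal cortex cells, and lie to the right, median 0.51, when all frontal cortex cells are used.

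In frontal cortex the same comparison gave 203 genes higher (7.24%) and 242 lower (8.64%) of 2802. Of 71 axonemal genes, 20 were higher and 1 lower, with a median log2 ratio of 0.51 against -0.04 over all genes. Ccdc153 stood at 1656 and 819.6 CPM in transgenic and wildtype cells, a log2 ratio of 1.01 (0.69 to 1.35). With the Ttr-rich cells left out it was at 2394 and 1837 CPM, 0.38 (0.06 to 0.71). Over the Ttr-poor cells the axonemal median was 0.12, against 0.07 over all genes, and 3 of 61 axonemal genes were counted as higher and 2 as lower, against 5.23% and 6.07% of all 1663 genes. With the microglia-rich wildtype cell also left out, the median was -0.05 and 2 of 60 were higher and 5 lower, against 5.13% and 5.75% of all 1461 genes. Enkur, which encodes a protein inside the doublets, remained counted: it stood at 673 and 283 CPM in transgenic and wildtype cells in that last comparison, a log2 ratio of 1.25 (0.36 to 2.26) on 77 and 12 UMIs. Dnal1 was lower, at 52.4 and 449 CPM in transgenic and wildtype cells, a log2 ratio of -3.10 (-4.71 to -1.72) on 6 and 19 UMIs. These rest on 12 transgenic and 5 wildtype cells.

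Rarres2 was counted as higher in transgenic frontal cortex in each of these cell sets. Over the Ttr-poor cells it stood at 3835 and 1269 CPM in transgenic and wildtype EPC, a log2 ratio of 1.60 (1.24 to 1.97), and without the microglia-rich cell it stood at 1.51 (1.11 to 1.94). In midbrain its log2 ratio was -0.01 (-0.09 to 0.06).

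Secreted proteins in midbrain had a median log2 ratio of -0.12 over 38 genes, against -0.06 over all genes, with 3 counted as higher and 4 as lower of 34 tested, beside 2.84% and 4.21% of all genes. Agt, which encodes angiotensinogen, was at 69.0 and 32.8 CPM in transgenic and wildtype EPC, with 32 of its 41 transgenic UMIs in 1 cell. Enpp2 was at 89.2 and 211 CPM in transgenic and wildtype EPC, with 117 of its 270 wildtype UMIs in 1 cell, and Wfdc2, a secreted protease inhibitor, at 47.1 and 96.1 CPM, in 2 transgenic and 9 wildtype cells. Every other midbrain type carried Enpp2, from 43.2 and 61.4 CPM in transgenic and wildtype OLG cells to 15030 and 12220 CPM in CPC cells. MG cells stood at 175.8 and 233.1 CPM. Outside the 5 Sspo-rich cells, midbrain Enpp2, like Ttr, was therefore not read as expression by EPC cells. Those 5 cells held 58 Enpp2 UMIs of 66910 UMIs in all, against 265 of 1807406 in the other 154 cells. Whether they express it was not tested. Wfdc2 stood at 360.8 and 408.5 CPM in transgenic and wildtype CPC cells. Sparcl1, a matrix protein, was at 644 and 1065 CPM in transgenic and wildtype EPC, a log2 ratio of -0.73 (-0.89 to -0.56). Cst3 was counted as higher at 0.60 (0.50 to 0.71), and stood at 0.34 (0.22 to 0.45) without the microglia-rich cell. In frontal cortex 4 of 24 secreted genes were counted as higher and 2 as lower, beside 7.24% and 8.64% of all genes. Over the Ttr-poor cells 2 of 21 were higher and 5 lower, beside 5.23% and 6.07%, and without the microglia-rich cell 1 was higher and 4 lower, beside 5.13% and 5.75%. Those 4 were Apoe, Timp2, Timp3 and Psap, and Apoe stood at 4123 and 9377 CPM in transgenic and wildtype cells, a log2 ratio of -1.19 (-1.38 to -0.99).

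The naming rule took the largest ratios among genes with 50 CPM in 1 library and 50 UMIs over both whose direction also held under TMM factors and the mean of per-cell CPM, and left out markers of other cell types and haemoglobin genes. The high midbrain genes it named were Prnp, Cxcl12, Ctss, Ifit3, Plac9b, Htr5b, Usp50, S1pr1, Krit1 and Atf3. Cxcl12, a chemokine, had 36 and 18 UMIs in transgenic and wildtype EPC, with 25 of the 36 in 1 cell. Ifit3, an interferon-induced gene, had 32 and 23 UMIs, with 27 of the 32 in 1 cell, and its log2 ratio of 1.58 (0.76 to 2.42) turned to -0.21 when the highest cell of each library was left out. Gfap, the astrocyte intermediate filament gene, had 37 and 30 UMIs with 25 of the 37 in 1 cell. Astrocyte markers were present in both genotypes, at 1514 CPM in transgenic and 1544 CPM in wildtype midbrain EPC for 8 genes summed, with none at 0. In 1 transgenic cell they reached 158 UMIs, against a median of 15 per cell, and their part in these genes was not tested. Other types' markers also differed between the midbrain genotypes. Endothelial markers summed to 309.5 and 209.4 CPM over 8 genes in transgenic and wildtype EPC, with 112 of 184 transgenic and 109 of 268 wildtype UMIs in single cells, and Ly6a, Ly6c1 and Flt1 were counted as higher. Mural markers summed to 126 and 330.5 CPM over 7 genes, with 162 of 423 wildtype UMIs in a single cell, and Rgs5, Tagln and Acta2 were counted as lower. Erythroid genes summed to 183 and 24.2 CPM, and Hbb-bs had 68 and 19 UMIs in 34 transgenic and 18 wildtype cells, a log2 ratio of 2.95. The part of these in other genotype ratios was not tested. Among the lowest ratios that the rule named were the clock output gene Dbp, at 45.4 and 162 CPM in transgenic and wildtype EPC, a log2 ratio of -1.83 (-2.47 to -1.25), and Txnip, the thioredoxin-binding protein gene, at 229 and 553 CPM in transgenic and wildtype EPC, -1.27 (-1.55 to -1.01). Dbp UMIs occurred in 19 of the 45 transgenic and 63 of the 114 wildtype cells. The remaining low genes of the rule were Car3, Gadd45b, Krt15, Hspa1a, Selenom, Lpin2, Sh3gl1 and Enpp2. Krt15, a keratin gene, was at 40.4 and 124 CPM in transgenic and wildtype EPC.

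Stress genes went both ways in midbrain. Of 18 heat shock and chaperone genes 2 were higher, Hspb6 and Hspb1, and 3 were lower, Bag3, Hspa1a and Hspa1b, beside 2.84% and 4.21% of all genes. Hspa1a, an inducible chaperone of the HSP70 family, stood at 63.9 and 184 CPM in transgenic and wildtype EPC, with UMIs in 14 transgenic and 52 wildtype cells, and it is a near-identical copy of Hspa1b, so the counts of the pair are uncertain. Hspb1, a small heat shock protein gene, stood at 339.8 and 186 CPM, and 53 of its 202 transgenic UMIs were in 1 cell. Of 18 immediate early genes 1 was higher and 4 were lower, beside the same shares. The higher one was Atf3, where a single cell gave 107 of the 176 transgenic UMIs. The lower ones were Btg2, Socs3, Zfp36 and Dusp1. Zfp36, which encodes an RNA-destabilising protein, stood at 65.6 and 117 CPM in transgenic and wildtype EPC.

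In frontal cortex the interferon list had 4 of 5 measured genes counted as higher, Ifit3, Isg15, Bst2 and Ifitm3, beside 7.24% of all genes. Ifit3 had 54 UMIs spread over 6 transgenic cells, 30 of them in 1 cell, and 1 UMI in the wildtype cells, a log2 ratio of 5.45 (2.91 to 10.78). It stood at -0.87 when cells bearing other types' UMIs were left out, which kept 5 transgenic and 4 wildtype cells. That value sets a wildtype count of 0 to the floor of 3 UMIs, so its sign does not show fewer transgenic UMIs. Over the Ttr-poor cells without the microglia-rich cell 3 of 5 interferon genes were counted as higher, Ifit3, Isg15 and Bst2, beside 5.13% of all genes. All 13 mitochondrially encoded genes were counted as higher, with a median log2 ratio of 0.89. The median mitochondrial share was 5.4% of UMIs in transgenic and 1.8% in wildtype frontal cortex EPC cells, and within the Ttr-poor cells 6.38% and 5.18%, where with the microglia-rich cell left out 0 of 13 genes were counted and the median log2 ratio was 0.16. The microglial chemokine gene Ccl4 was among the lowest ratios, at -3.97 over all cells, and stood at 1.08 without the microglia-rich wildtype cell. The other genes that the rule named low were Ap1s2, Sgk1, Sdhc, Zfand6, Ppp1r1b, Cul4b, Psmc3, Pkm and Etfb. None of the 9 was counted as lower over the Ttr-poor cells, where all but Pkm had fewer than 20 UMIs, too few to be counted. Ap1s2 and Ppp1r1b stood at 0.07 each there, Pkm, which encodes a pyruvate kinase, at -0.44 (-1.39 to 0.55), and the remaining 6 between -2.42 for Sgk1 and -0.48 for Psmc3.

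Prnp (ENSMUSG00000079037, chr2:131909928-131938429, plus strand), the gene of the cellular prion protein, had the largest midbrain genotype ratio of the genes named. It stood at 6811 CPM in transgenic EPC cells (4049 UMIs) and 742 CPM in wildtype EPC cells (950 UMIs), a log2 ratio of 3.20 (3.1 to 3.3). In single cells the lowest, median and highest were 1425, 6347 and 17990 CPM in transgenic midbrain cells, and 0, 591 and 1966 CPM in wildtype midbrain cells, so the lowest transgenic cells overlap the highest wildtype cells. The ratio had rank 3 of 15 deposited types in midbrain, after MNC at 3.85 and mNeur at 3.69. Rank 14 was Hb_EC at 0.14 (-0.44 to 0.72) and rank 15 was MG at -0.04 (-0.24 to 0.16). In frontal cortex it stood at 3118 and 209 CPM over all transgenic and wildtype EPC cells, a log2 ratio of 3.90 (3.35 to 4.51), with rank 4 of 13 types. Over the Ttr-poor cells it stood at 4202 and 418 CPM (481 and 25 UMIs), 3.33 (2.75 to 3.97), and without the microglia-rich cell the log2 ratio was 3.02 (2.40 to 3.70). Over the Ttr-rich cells it stood at 686 and 40.4 CPM (35 and 3 UMIs), 4.09 (2.42 to 6.43). Cells labelled AC stood at 0.23 (0.21 to 0.26) in midbrain and 0.54 (0.51 to 0.58) in frontal cortex, and TNC cells of midbrain at 1.77. In frontal cortex MG cells stood at 2.34 (2.16 to 2.53), and the lowest of the 13 types was CPC at 0.21 (0.001 to 0.42). Whether the ratio differs between types was not tested. The counts do not show which transcripts gave the UMIs assigned to Prnp, and this was not tested.

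**Figure D5:**
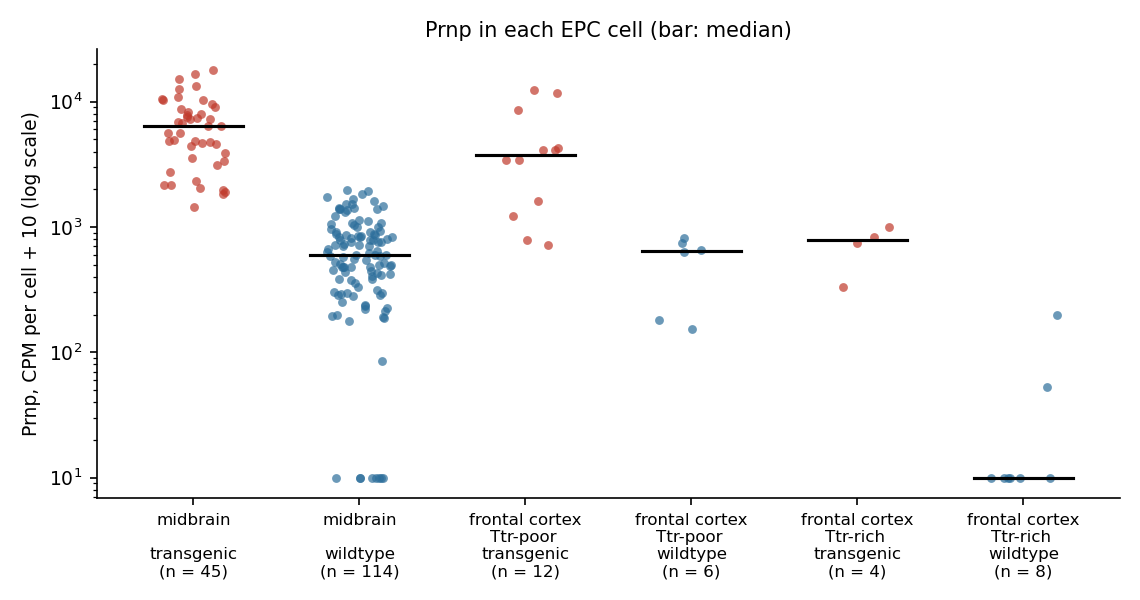
Each point is 1 EPC cell, with its Prnp level in CPM plus 10 on a log axis, transgenic in red and wildtype in blue, split in frontal cortex into Ttr-poor and Ttr-rich cells, with black bars at the medians. In midbrain the transgenic median is 6347 CPM and the wildtype median 591 CPM, and in Ttr-poor frontal cortex cells the medians are 3761 and 630 CPM, with overlapping ranges.

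Midbrain and frontal cortex were compared within each genotype, and a gene was counted when it passed the size rule in the same direction in both genotypes. Region and library coincide, so neither can be told apart from the other. Over all labelled cells 231 genes (3.87%) were higher and 283 (4.74%) lower in midbrain of 5974 tested. Of 94 axonemal genes, 17 were higher and 0 lower. When the Ttr-rich frontal cortex cells were left out, 31 of 5737 genes (0.540%) were higher and 28 (0.488%) lower, and of the 94 axonemal genes 1, Rsph9, was higher. Rsph9, a radial spoke head protein gene, stood at 326 CPM in midbrain against 166 CPM in Ttr-poor frontal cortex cells of the transgenic libraries, and at 317 against 167 CPM in the wildtype libraries. Tuba1a stood at 2853 against 1642 CPM in the transgenic pair and 2347 against 1353 CPM in the wildtype pair. Of the secreted genes, Sspo, Enpp2 and Wfdc2 were higher in midbrain, and Sspo and Wfdc2 had 0 UMIs in the Ttr-poor frontal cortex cells. Enpp2 was carried by every midbrain type, as given above. Zic1, a patterning factor, stood at 123 against 52.4 CPM in the transgenic pair and 134 against 33.4 CPM in the wildtype pair. Clec3b, which encodes the secreted protein tetranectin, stood at 273 against 52.4 CPM in the transgenic pair and 288 against 83.5 CPM in the wildtype pair.

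Lower in midbrain were Rhob, at 210 against 489 CPM in the transgenic pair and 229.7 against 651 CPM in the wildtype pair, and Crim1, at 72.3 against 201 CPM in the transgenic pair and 89.1 against 217 CPM in the wildtype pair. Of 17 immediate early genes 6 were lower in midbrain in both genotypes, Jun, Junb, Egr1, Dusp1, Atf3 and Btg2. Jun stood at 604 against 1066 CPM in the transgenic pair and 840.0 against 1803 CPM in the wildtype pair. Gfap stood at 62.2 against 140 CPM in the transgenic pair and at 23.4 against 150.3 CPM in the wildtype pair. The wildtype pair rests on 6 Ttr-poor frontal cortex cells, and 17547 of their 59885 UMIs came from the microglia-rich cell. Values of single genes in the comparison of regions include that cell. With the microglia-rich cell left out 17 genes were higher and 27 lower.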

How the data were processed

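The deposited matrices hold raw UMI counts per gene and cell. The deposited cell tables add a type label, a cluster number and, in percent, the mitochondrial part of a cell's UMIs. Cell Ranger 3.0.0, Seurat 3.1.5 and mm10 are named in the submitters' processing notes. Doublet removal is not stated in the sources used here, and no doublet caller was run. UMIs of EPC cells were summed per library and scaled to CPM (Python 3.11.15), with exact 95% Clopper-Pearson intervals for ratios and a floor of 3 UMIs per library where a count was 0. The counting was run on simulated Poisson sums, which hold counting error only. They lack the uneven spread of UMIs over cells, so they cannot show how the calls fare with it. Named genes were the markers and Prnp, the most abundant of each list, those with the widest margin over other types, and those with the largest genotype or region ratios. Members and lists were chosen with earlier results of these data known. The transgene's own transcript, which that rule picks in midbrain, and 1 further gene stayed in totals and counts of genes but are not reported here, and the next gene took the transcript's place. Positions are from GENCODE M21 (GRCm38). Alternatives were edgeR 4.0.16 TMM and DESeq2 1.42.0 size factors (R 4.3.3), totals lacking mitochondrial and ribosomal genes, averaging CPM over cells, a stricter cell filter (under 10% mitochondrial UMIs, 500 genes), thinning to 3000 UMIs, leaving out cells with 4 or more UMIs of another type's markers, no filter on low genes, leaving out the highest cell, and no margin over other types. Leaving out Ttr-rich frontal cortex cells, cells with 50 or more microglial UMIs, or both, was added after the data were seen.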

Additional observations from a re-analysis of the deposited data

Results flagged for a closer look

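For the 9 genes given here the ratio of transgenic over wildtype EPC lay on opposite sides of equality in frontal cortex and midbrain, past the size counted in both. The difference between regions was not tested. Most are genes of microglia. In log2, frontal cortex and midbrain stood at -3.41 and 1.37 for C1qa, -2.99 and 1.90 for C1qb, -3.03 and 2.90 for C1qc, -2.69 and 1.52 for Csf1r and -5.39 and 1.81 for Ctss. The lysosomal protease gene Ctsd stood at -1.30 and 0.62, and the secreted cysteine protease inhibitor gene Cst3 at -1.05 and 0.60. When the microglia-rich cell of wildtype frontal cortex (249 UMIs of 8 microglial markers) and that of transgenic midbrain (138 UMIs) were left out, none of these 7 genes was counted as higher or lower in either region. C1qa then stood at 0.23 and -0.92, and Ctss at -2.83 and 0.36.

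The immediate early gene Dusp1 and the stress gene Gadd45b were counted with and without those cells. Without them Dusp1 stood at 1.12 in frontal cortex and -0.70 in midbrain, and Gadd45b at 2.67 and -1.74. With all cells Dusp1 stood at 1.11 in frontal cortex and -0.72 in midbrain, with 465 and 216 CPM in transgenic and wildtype frontal cortex and 165 and 271 CPM in transgenic and wildtype midbrain. Gadd45b stood at 2.28 in frontal cortex and -1.67 in midbrain. Its levels were 109 and 22.4 CPM in transgenic and wildtype frontal cortex, and 23.6 and 75 CPM in transgenic and wildtype midbrain. EPC cells held only 165491 UMIs in transgenic and 134218 UMIs in wildtype frontal cortex. The frontal cortex ratios of Gadd45b, with and without the microglia-rich cell, therefore rest on few UMIs, fewest in wildtype. Over the Ttr-poor frontal cortex cells alone Dusp1 stood at 0.52, short of the size counted, and Gadd45b at 1.65.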

How the results depend on the processing

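No paired analysis was possible because each group is 1 library and replicate numbers only name it. Of the summary values under alternatives, 106 stayed near the reported value and 32 did not, and of the values of single genes 351 kept direction and call, 74 lost the call and 11 changed sign. The causes were not tested, though the smaller cell sets hold fewer UMIs. DESeq2 size factors moved all frontal cortex genotype ratios by 0.118 (log2). Thinning gave 60 genes higher and 61 lower in frontal cortex, 88 and 104 in midbrain, 42 and 96 between regions, and 20 axonemal genes highest in frontal cortex EPC. Leaving out cells with UMIs of other types, which left 5 and 16 cells in transgenic and wildtype midbrain and 5 and 4 in transgenic and wildtype frontal cortex, gave 54 and 112 genes in frontal cortex, 51 and 62 in midbrain, and 85 and 132 between regions. It gave axonemal medians of -0.58 in frontal cortex, secreted medians of 0.96 in frontal cortex and -0.79 in midbrain, 1 and 36 axonemal genes highest in frontal cortex and midbrain, and 1 secreted gene highest in each. With no filter on low genes frontal cortex had 306 higher and 381 lower. Leaving out the highest cell gave 134 higher there. Leaving out Ttr-rich cells gave 87 and 101 in frontal cortex and 31 and 28 between regions, and leaving out microglia-rich cells too gave 75 and 84, and 17 and 27. With no margin 5 secreted genes ranked first in midbrain. In frontal cortex Ifit3 stood at -0.87 and Nuf2 at -0.28 without cells bearing other types' UMIs, Ccl4 at 0.91 without the highest cell and 1.08 without microglia-rich cells, Ap1s2 at 0.065 without Ttr-rich cells and 0.57 without both, Ppp1r1b at 0.065 without Ttr-rich cells, and Psmc3 at 0.38 after thinning. In midbrain Ifit3 stood at -0.21 without the highest cell, and S1pr1 at -0.97 and Selenom at 0.18 without cells bearing other types' UMIs.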
